A study of Mus musculus with 11 samples.

Results

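The genes described here encode the H3K4 methyltransferases of the MLL and SET1 family and the core that they share with WDR5. The 10 genes were taken by name from that list: the shared core subunits Wdr5, Ash2l, Rbbp5 and Dpy30, the MLL family enzymes Kmt2a, Kmt2b, Kmt2c and Kmt2d, and the SET1 enzymes Setd1a and Setd1b. They are 10 of the 21887 protein-coding genes that the peak lists were read against. For each gene, H3K4me3 peaks within 1000 bases of either end of its mm10 span were counted, together with any WDR5 or P53 peak within 5000 bases of the span.

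The study deposited 11 lists of CUT&RUN peaks. In CUT&RUN, a nuclease tethered to an antibody releases the DNA beside the antibody's target, and that DNA is sequenced. The cells were mouse embryoid bodies at day 2, grown from embryonic stem cells that carry GFP knocked into Rx, in all groups. The genotypes were Wdr5 knockout (KO), Wdr5 and p53 double knockout (DKO) and wild type (WT), as labelled. H3K4me3 had 1 list in each genotype, and WDR5 and P53 had 2 lists each in DKO and WT and none in KO. Doxycycline was removed at day 0 and 2% matrigel was added at day 1 in all groups. All groups also list 5% KSR, a serum replacement. The labels do not say how the deletions were made, which parts of the genes they remove or whether each genotype is a single clone.

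The H3K4me3 libraries held 22.3 M (mega) fragments in KO, 43.2 M in DKO and 34.2 M in WT, and their lists held 918, 6418 and 9836 peaks. With 1 library per genotype, no difference between genotypes below has a replicate check or a test, and genotype and library cannot be told apart. The WDR5 and P53 libraries held 23.9 to 57.5 M fragments. Of the summits in list 2, 75.3% in DKO WDR5, 77.3% in WT WDR5 and 80.3% in WT P53 lay on the base of a summit in list 1, so these pairs were counted as 1 library each. That share was 10.6% in DKO P53, and independence was not established there. The command line of each list 2, DKO P53 included, names a merged alignment, and that of each list 1 does not. Among 5 pluripotent and epiblast markers, 3 were marked by H3K4me3 at an end in KO, 5 in DKO and 4 in WT, beside 3.20%, 22.8% and 35.5% of all protein-coding genes, with Nanog marked in DKO alone. None of 5 anterior neural and eye field markers, Rax included, was marked in any genotype, and Eomes and Thy1 were the sole mesoderm, endoderm or feeder markers called at an end, both in WT.

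As background, H3K4me3 is a mark of active promoters. WDR5, RBBP5, ASH2L and DPY30 form a core that binds each SET domain enzyme and raises its activity; WDR5 holds the enzyme through a short arginine-containing motif. SETD1A and SETD1B are known for most promoter H3K4me3, KMT2A and KMT2B for trimethylation at chosen CpG-rich promoters, and KMT2C and KMT2D mainly for monomethylation at enhancers.

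In the deposited lists, which differ in length, H3K4me3 was called at most of these genes in DKO and WT and at few in KO. Within 1000 bases of a span end, a peak was called at 1 of the 10 genes in KO, at 8 in DKO and at 9 in WT. Among all protein-coding genes the same rule called 3.20% in KO, 22.8% in DKO and 35.5% in WT. Of the 9 genes marked in WT, Wdr5 was the 1 called in KO, near the 8.98% of all WT-marked genes, and 8 were called in DKO, against 59.8% of all WT-marked genes. With each list cut to its 918 highest peaks, the length of the KO list, the counts were 1 in KO, 3 in DKO and 2 in WT, beside 3.20%, 4.03% and 4.25% of all genes. The window at the ends missed peaks inside the spans. With the whole span and 1000 bases on either side, 3 of the 10 genes had a peak in KO (Wdr5, Ash2l and Kmt2d), all 10 had one in DKO and all 10 had one in WT, where the shares of all genes were 3.85%, 26.7% and 40.2%. Of all genes marked in WT by that wider rule, 9.35% were called in KO and 61.6% in DKO.

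**Figure D1:**
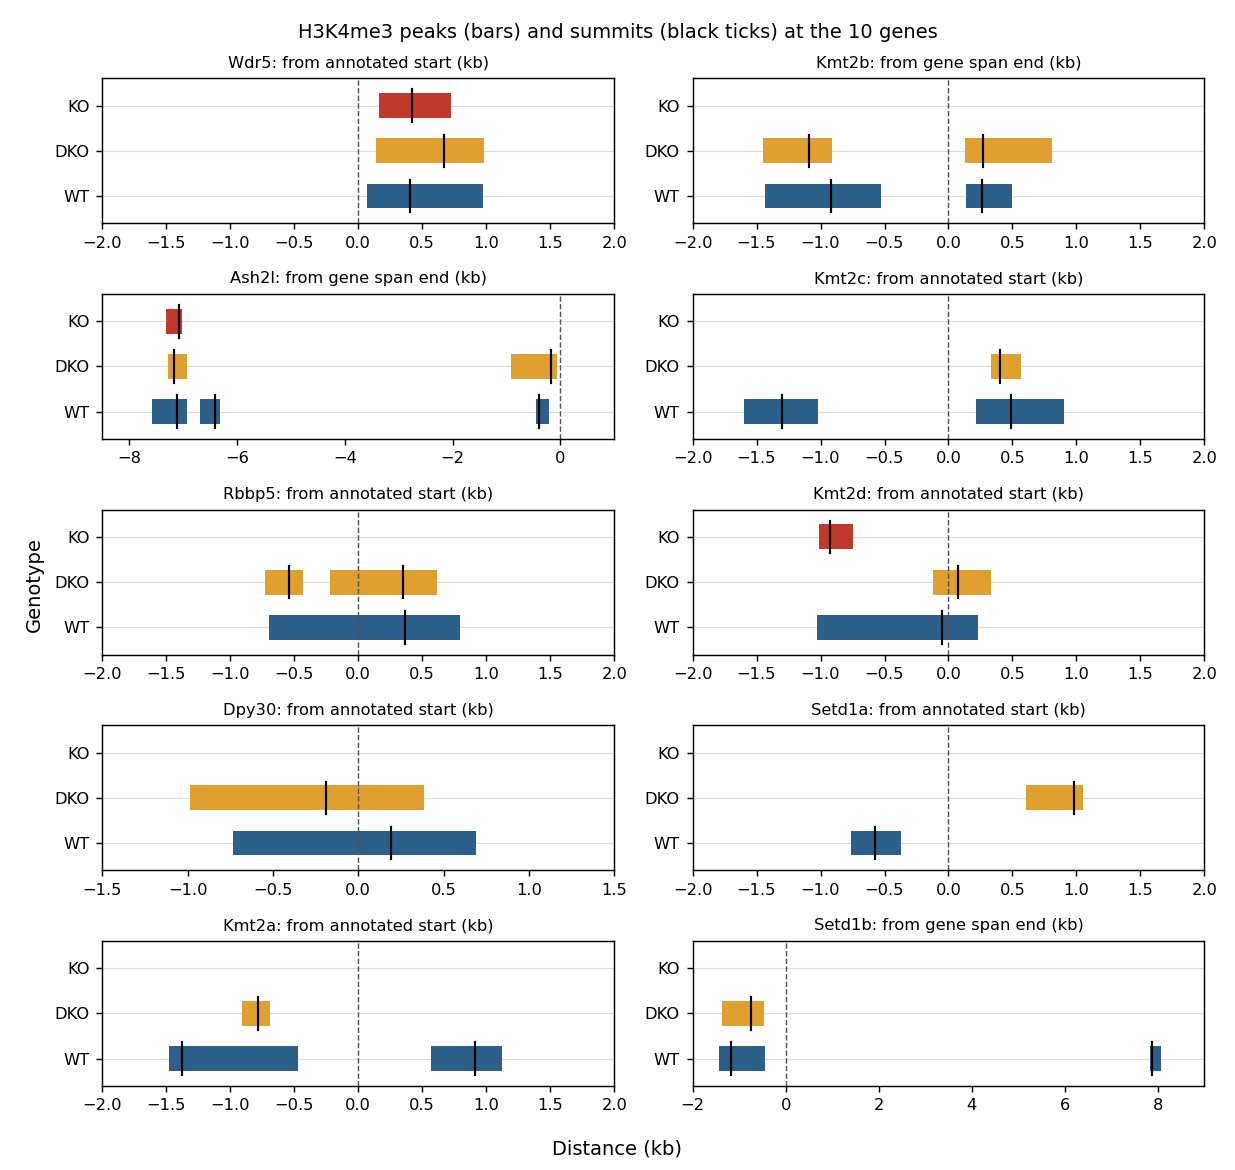
Each panel shows 1 gene, with KO above DKO above WT; bars are H3K4me3 peaks, black ticks their summits, and the x axis is the distance in kb from the annotated start along the direction of transcription (Wdr5, Rbbp5, Dpy30, Kmt2a, Kmt2c, Kmt2d, Setd1a) or from the end of the gene span nearest the peaks in genome direction (Ash2l, Kmt2b, Setd1b). KO has bars at Wdr5, Ash2l and Kmt2d; the WT peak at the far end of Kmt2d, 40022 bases from its start, is outside its panel.

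Annotated start sites from RefSeq (GRCm38.p6, the assembly of mm10) were matched for 7 of the 10 genes: Wdr5, Rbbp5, Dpy30, Kmt2a, Kmt2c, Kmt2d and Setd1a. Peaks often lay beside a start and not on it. A peak covered the start in WT at Rbbp5, Dpy30 and Kmt2d, and at the other 4 the nearest edge lay 66 bases away at Wdr5, 213 at Kmt2c, 372 at Setd1a and 472 at Kmt2a. Over all genes marked at an end, 9.99% in KO, 12.4% in DKO and 21.6% in WT had a peak over the end itself. The sequences of 4 of these promoters are shown because the peaks around them differ in layout: Wdr5 and Kmt2d are those called in KO with a listed start, the Kmt2a start lies between a pair of WT peaks, and at Setd1a the DKO and WT peaks lie on opposite sides of the start. Each runs 5′ to 3′ from 250 bases before the start to 50 after it, and capitals mark the GC box GGGCGG on either strand.
Wdr5: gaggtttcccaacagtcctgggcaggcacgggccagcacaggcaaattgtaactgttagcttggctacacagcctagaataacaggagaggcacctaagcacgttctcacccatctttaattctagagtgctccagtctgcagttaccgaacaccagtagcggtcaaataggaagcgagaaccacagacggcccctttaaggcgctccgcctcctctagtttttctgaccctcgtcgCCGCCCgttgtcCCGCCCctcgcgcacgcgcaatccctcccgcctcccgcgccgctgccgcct
Kmt2d: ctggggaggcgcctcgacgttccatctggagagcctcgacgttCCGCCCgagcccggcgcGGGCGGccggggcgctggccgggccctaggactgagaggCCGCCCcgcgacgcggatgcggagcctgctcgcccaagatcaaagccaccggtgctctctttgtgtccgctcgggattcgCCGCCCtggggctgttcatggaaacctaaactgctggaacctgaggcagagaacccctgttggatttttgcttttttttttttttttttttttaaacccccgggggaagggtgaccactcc
Kmt2a: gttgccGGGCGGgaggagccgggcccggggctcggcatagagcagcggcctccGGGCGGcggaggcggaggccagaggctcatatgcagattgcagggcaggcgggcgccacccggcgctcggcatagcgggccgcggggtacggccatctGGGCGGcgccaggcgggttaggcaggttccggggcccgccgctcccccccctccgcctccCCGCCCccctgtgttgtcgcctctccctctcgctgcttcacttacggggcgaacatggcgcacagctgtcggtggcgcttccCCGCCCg
Setd1a: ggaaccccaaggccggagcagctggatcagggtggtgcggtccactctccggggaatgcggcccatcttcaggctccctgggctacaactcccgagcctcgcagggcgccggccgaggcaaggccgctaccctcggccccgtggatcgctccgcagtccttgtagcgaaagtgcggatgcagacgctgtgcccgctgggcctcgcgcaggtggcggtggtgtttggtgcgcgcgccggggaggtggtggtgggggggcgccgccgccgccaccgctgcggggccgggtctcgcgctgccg

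The Wdr5 window (chr2:27514897-27515196, plus strand) held 22 CpG dinucleotides and 2 GC boxes, at and just before the start. The Kmt2d window (chr15:98871156-98871455, minus strand) held 27 CpG and 4 GC boxes, the Kmt2a window (chr9:44881240-44881539, minus strand) 36 CpG and 5 GC boxes, and the Setd1a window (chr7:127777139-127777438, plus strand) 35 CpG and no GC box. The median over 32851 RefSeq promoter windows of 300 bases was 7 CpG, and 35.7% of them held a GC box. Of the other genes, the Kmt2c window reached 56 CpG, more than 99.8% of all windows, with 12 GC boxes that partly overlap each other, and the Rbbp5 window held 16 CpG and none. Among the 4 windows of Dpy30, the farthest upstream held 1 CpG and no H3K4me3 peak in any genotype, and the other 3, which overlap each other, held 30, 34 and 39 CpG and lay under a peak in DKO and WT.

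The windows of these 7 genes were searched for motifs on either strand. The E-box CACGTG (7.15% of all windows), the ETS core CCGGAAG (8.86%) and the TATA box TATAAA (13.6%) were found in none of them. The same held for the p53 half-site (8.36%) and for the exact palindrome searched for NRF1 (0.971%). Other forms of the NRF1 motif were not searched. The Wdr5 window held, just after its start, a string that differs from that palindrome by 1 letter. No absence of an NRF1 site at Wdr5 is thus read from this search. The CCAAT box, letters CCAAT (37.4%), was found once, in the upstream Dpy30 window. A missing match says that these letters are not in these windows and nothing of the factors.

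Wdr5, which encodes the scaffold that was deleted, carried the highest H3K4me3 peak of the 10 genes in KO, DKO and WT by fold enrichment, which is the summit pileup over the background that the peak caller estimated around it. The gene lies on chromosome 2 from 27515147 to 27536535. The KO peak ran from 27515311 to 27515874 with 21 fragments over its summit and a fold enrichment of 4.66. The DKO peak ran from 27515284 to 27516132 with 53 fragments and 6.85, and the WT peak from 27515213 to 27516118 with 73 fragments and 8.07. All 3 peaks overlapped and lay downstream of the start, inside the gene, with summits 417 bases from it in KO, 668 in DKO and 401 in WT. The mark was thus still called at the 5′ end of the deleted gene in both knockout genotypes, at 57.8% of the WT fold enrichment in KO and 84.9% in DKO. As the deleted part is not known here, this does not check the deletion. In WT the peak exceeded 98.6% of all genes marked at an end, in DKO 99.4% and in KO 51.9%. Where both were called, the log2 ratio of KO to WT was -0.79 at Wdr5 against a median of -0.27 over 697 genes, and 4.16% of those genes had a lower ratio. Fold enrichment was lower in KO than in WT at 79.5% of the 697 genes. The log2 ratio of DKO to WT at Wdr5 was -0.24 against a median of -0.30 over 4638 genes, of which 58.1% had a lower ratio, and its ratio relative to that median was 0.06. By the whole span, fold enrichment was lower in KO at Wdr5, Ash2l and Kmt2d, all 3 genes called in both, and at 77.8% of the 823 genes called in both.

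Ash2l encodes the subunit that, with RBBP5, activates the SET domain. Its span lies on chromosome 8 from 25816000 to 25847694, and its peaks fell into 2 places. The inner place lay 7028 bases from the span end in KO and 6927 in DKO and WT: the KO peak, 25840379 to 25840666, had 22 fragments and a fold enrichment of 4.29, the DKO peak 28 fragments and 3.51, and the highest WT peak 35 fragments and 4.93. At the span end, KO had no peak, the DKO peak had 57 fragments and 5.25 over 869 bases, and the WT peak had 21 fragments and 3.20 over 242 bases. The end peak was thus higher in DKO than in WT, while the inner peak was lower in DKO than in WT. Per M fragments of the library, the end peak had 1.32 in DKO (95% exact Poisson interval 1.0 to 1.71) against 0.614 in WT (0.38 to 0.939).

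The DKO to WT log2 ratio of 0.72 at the Ash2l end was the highest of the 4638 genes called at an end in both, and 1.01 relative to their median. It rests on a low WT peak, which exceeded 1.95% of all genes marked at an end in WT. That WT peak had a −log10 q of 3.67, and Ash2l was not called in WT with a −log10 q of at least 5. The DKO peak there also lay within 1000 bases of Kcnu1, a potassium channel gene, and its local background was 10.1 fragments in DKO against 5.89 in WT. By the highest peak anywhere in the span the Ash2l log2 ratio was 0.09, which sets the DKO end peak against the WT inner peak and is no difference at 1 place.

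Rbbp5, the other activating subunit of the core, lies on chromosome 1 from 132477348 to 132505665. It had no peak in KO. In DKO a peak with 40 fragments and a fold enrichment of 5.08 covered the start, with a lower peak of 26 fragments and 3.43 upstream of it, and in WT a single peak of 1493 bases, with 51 fragments and 5.76, covered both places. A non-coding gene, 6030442K20Rik, lay within 1000 bases of all 3 peaks.

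Dpy30 encodes the small subunit that binds ASH2L. Its span, on chromosome 17 from 74299474 to 74323944, had no peak at either end in any genotype, so the rule did not count it. Its peaks lay over the inner start sites, 6522 bases from the span end in DKO and 6997 in WT. The DKO peak had 40 fragments and a fold enrichment of 5.54, and the WT peak 50 fragments and 7.52. KO had none. By the whole span, the WT peak of Dpy30 stood above 97.6% of marked genes and its DKO peak above 94.6%.

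**Figure D2:**
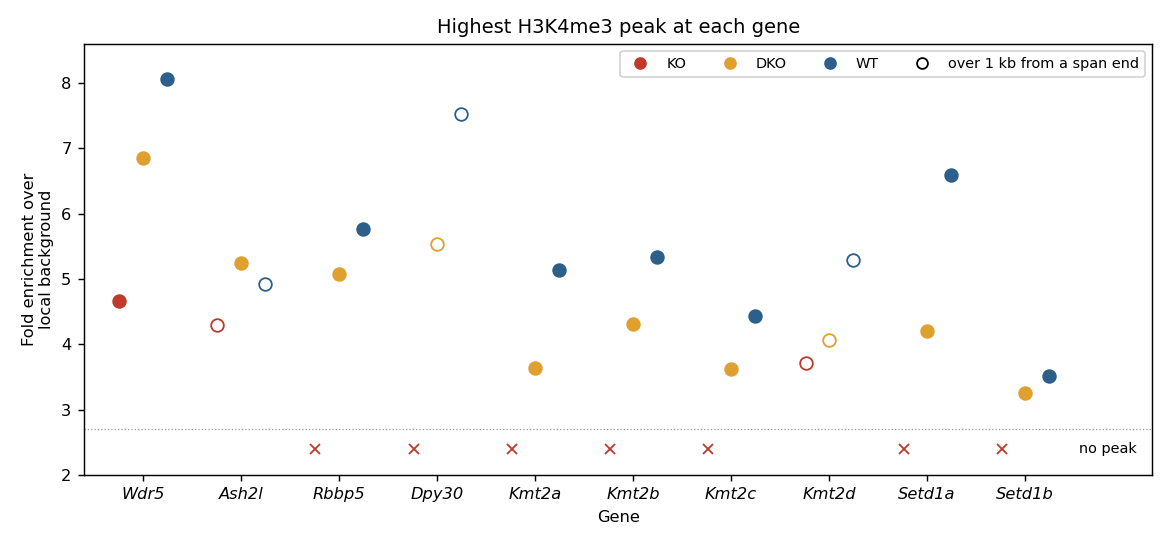
Fold enrichment over local background (y axis) of the highest H3K4me3 peak in the span of each gene or within 1 kb of it, with KO, DKO and WT from left to right; open circles lie over 1 kb from a span end and crosses mark genes with no peak. Every WT point but that of Ash2l lies above its DKO point, and KO has 3 circles and 7 crosses.

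Kmt2a, which encodes MLL1, lies on chromosome 9 from 44803355 to 44881352. KO had no peak. In DKO 1 peak of 216 bases lay upstream of the start with 23 fragments and a fold enrichment of 3.63, and another with 25 fragments and 4.0 lay 1109 bases from the span, just outside the window. In WT the upstream peak had 42 fragments and 5.13 over 1008 bases, and a downstream peak, which no DKO peak overlapped, had 26 fragments and 3.19. The start lay in the gap between the WT peaks.

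Kmt2b, which encodes the enzyme closest to MLL1, lies on chromosome 7 from 30568855 to 30589056. It had no peak in KO and the same pair of places in DKO and WT. The peak inside the gene had 33 fragments and a fold enrichment of 4.31 in DKO and 41 fragments and 5.33 in WT. The peak outside it had 26 fragments and 3.34 in DKO and 24 fragments and 3.17 in WT, and lay within 1000 bases of Zbtb32, a zinc finger gene, and the non-coding Gm32082. The outer peak was the lower of the pair in both genotypes.

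Kmt2c and Kmt2d encode MLL3 and MLL4. Kmt2c, on chromosome 5 from 25271795 to 25498855, had no peak in KO, 1 inside the gene with 29 fragments and a fold enrichment of 3.62 in DKO, and 1 at the same place with 32 fragments and 4.44 in WT. An upstream peak stood on either side of the window limit: 946 bases from the span in WT (22 fragments, 3.03) and 1372 bases in DKO (26 fragments, 3.32). This upstream peak lay at 4831440E17Rik, a non-coding gene.

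Kmt2d lies on chromosome 15 from 98831669 to 98874077, and its listed start is inside the span, so the peaks there were not counted by the rule. The KO peak had 18 fragments and a fold enrichment of 3.71 over 268 bases and its nearest edge lay 743 bases upstream of the start. The DKO peak had 29 fragments and 4.07 and covered the start, and the WT peak had 42 fragments and 5.29, covered the start and overlapped both. The KO and DKO peaks did not overlap each other, so the 2 knockout lists held different parts of the WT peak. The peak for which the rule counted Kmt2d in WT lay at the far end of the gene, with 27 fragments and 4.37, within 1000 bases of Prkag1, a subunit gene of AMP-activated kinase, and was absent from the KO and DKO lists.

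Setd1a, on chromosome 7 from 127777389 to 127800122, had no peak in KO. Its DKO peak, with 28 fragments and a fold enrichment of 4.21, lay 606 bases inside the gene, and its WT peak, with 47 fragments and 6.60, lay 372 bases upstream of it. These peaks did not overlap, so the gene was called in both genotypes at different places. Setd1b, on chromosome 5 from 123142040 to 123168630, had no peak in KO. Outside its end, inside or within 1000 bases of Rhof, a small GTPase gene, it had a peak with 31 fragments and 3.26 in DKO and 43 fragments and 3.51 in WT. A WT peak with 19 fragments and 3.24 inside Setd1b had no counterpart in the KO and DKO lists.

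Over the 10 loci there were 3 peaks in KO, 13 in DKO and 17 in WT. All 3 KO peaks and 12 of the 13 DKO peaks overlapped a WT peak. Of the 17 WT peaks, 3 were overlapped by a KO peak and 12 by a DKO peak, against 8.08% and 49.2% of all 9836 WT peaks.

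Between DKO and WT, fold enrichment was lower in DKO at 7 of the 8 genes called at an end in both, Ash2l being the exception. This was also the direction of 83.5% of the 4638 genes called in both. The median log2 ratio was -0.26 over the 8 genes and -0.30 over all of these genes. Relative to that general shift, 3 of the 8 genes were lower in DKO: Setd1a (-0.35), Kmt2a (-0.21) and Kmt2b (-0.01). At Setd1a the ratio sets against each other peaks on opposite sides of the start. At Kmt2a the log2 ratio was -0.50, and -0.36 with the DKO peak just outside the window, an alternative added after its value was known. With the whole span, 9 of 10 genes were lower in DKO, with a median of -0.30 against -0.28 over 5421 genes, where 82.7% were lower. The lowest ratio was -0.65 at Setd1a, below which 12.2% of those genes lay, and Dpy30 (-0.44) and Kmt2d (-0.38) also lay below the general median.

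**Figure D3:**
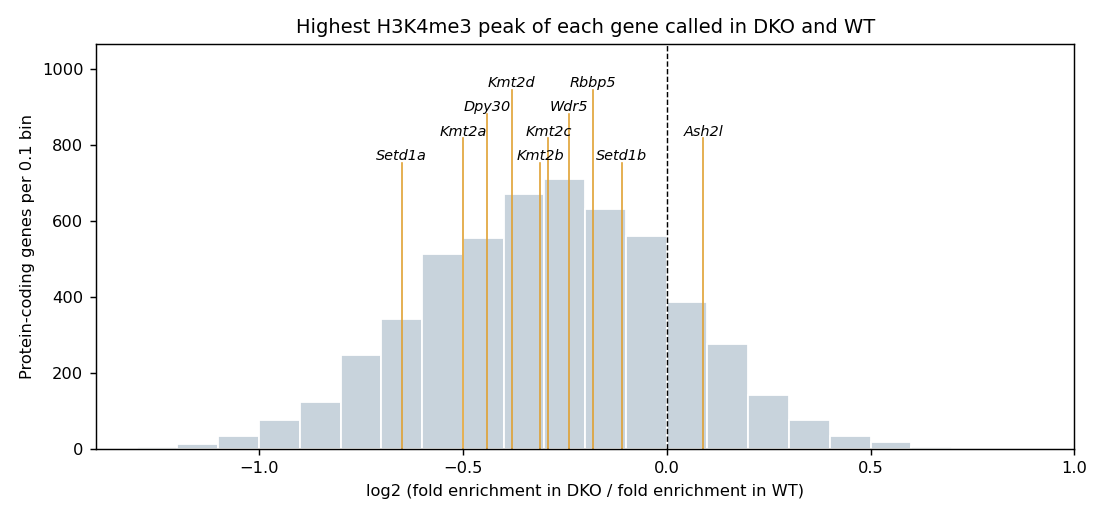
Histogram of the log2 ratio of fold enrichment in DKO to that in WT for the highest H3K4me3 peak of each gene (5421 protein-coding genes called in both, by the whole span; y axis, genes per bin of 0.1), with lines at the 10 genes. The lines run from -0.65 at Setd1a to 0.09 at Ash2l and lie across the body of the distribution.

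The number of fragments at a summit limits the precision of these values. Per M fragments of the library, the highest Wdr5 peak had 0.943 in KO (95% exact Poisson interval 0.584 to 1.44), 1.23 in DKO (0.919 to 1.61) and 2.14 in WT (1.67 to 2.68). The KO and DKO intervals overlapped each other and lay below that of WT. Kmt2a had 0.533 in DKO (0.338 to 0.799) against 1.23 in WT (0.885 to 1.66), and Setd1a had 0.648 in DKO (0.431 to 0.937) against 1.37 in WT (1.01 to 1.83). At Setd1a these are peaks that do not overlap, on opposite sides of the start, and thus no difference at the same place. The Kmt2a peaks overlap, with summits at 44882074 in DKO and 44882668 in WT. Among all genes called in both by the whole span, the DKO interval lay wholly below that of WT at 15.6% and wholly above it at 0.00% of 5421, and the KO interval lay below at 5.71% and above at 0.851% of 823. At the other 7 genes the DKO interval overlapped that of WT (at Ash2l for peaks at different places), as did the KO interval at Ash2l and Kmt2d. Such an overlap does not show that the values are alike. On this scale 95.1% of the 4638 genes called at an end in both were lower in DKO, with a median log2 ratio of -0.64. The intervals cover counting error alone and neither the choice of the summit nor the spread between libraries.

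**Figure D4:**
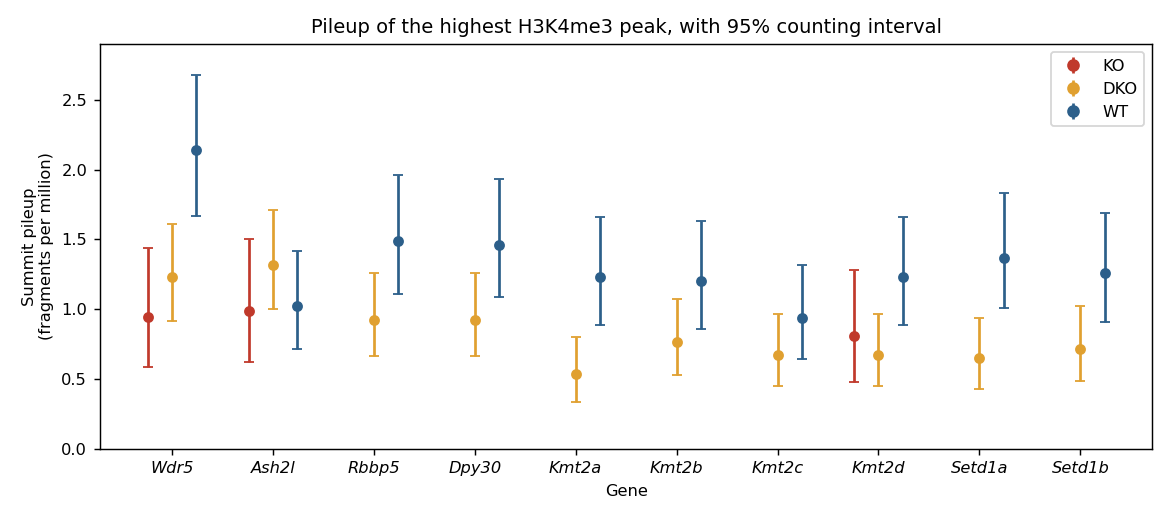
Summit pileup of the highest H3K4me3 peak of each gene in fragments per M fragments of the library (y axis), with KO, DKO and WT from left to right and bars for the 95% exact Poisson interval. The WT bar lies above the DKO bar without overlap at Wdr5, Kmt2a and Setd1a, and above the KO bar at Wdr5. At Setd1a the DKO and WT bars belong to peaks that do not overlap on the genome.

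Depth differed between the libraries, and its size was set beside the missing KO calls. Scaled to the KO depth, the highest WT peak of each of the 10 genes would have 20.8 to 47.5 fragments and a −log10 p of 8.37 (Kmt2c) to 28.5 (Wdr5), where the lowest −log10 p in the KO list was 5.93. Over all WT peaks, 72.8% reached that value when scaled. The median local background over the called peaks of each list was 0.173 fragments per M in KO, 0.138 in DKO and 0.162 in WT. The lists hold different sets of places, so these medians do not compare the libraries place by place. The part of depth and of the ratio of signal to background in the missing KO calls was not tested.

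No WDR5 or P53 peak lay within 5000 bases of any of the 10 spans in any list. Among all protein-coding genes, 1.05% had a WDR5 peak that near in DKO and 3.79% in WT, and 0.329% had a P53 peak in DKO and 0.914% in WT, so 0 of 10 is near the background. Wdr5 and p53 are both knocked out in DKO, so the DKO peaks of either antibody are not read as binding of its target. A chromosome 9 place 9498 kb from Kmt2a had a fold enrichment of 28.0 for WDR5 and 27.3 for P53 in DKO list 1. It had 27.4 for WDR5 in WT list 2. The source of such peaks was not tested. The nearest WDR5 peak in DKO lay 16.6 kb from Kmt2b in list 1 and 16.7 kb in list 2, against 128 kb in both WT lists. Next in DKO was Setd1a, at 31.6 kb in list 1 and 189 kb in list 2, against 68.7 kb and 189 kb in WT. In WT, Kmt2d lay 79.2 kb from the nearest peak in both lists. At Wdr5 itself the nearest WDR5 peak lay 2313 kb away in DKO list 1, 22136 kb away in DKO list 2 and 604 kb away in both WT lists. The nearest P53 peak of any list lay 211 kb from Rbbp5, in both WT lists.

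**Figure D5:**
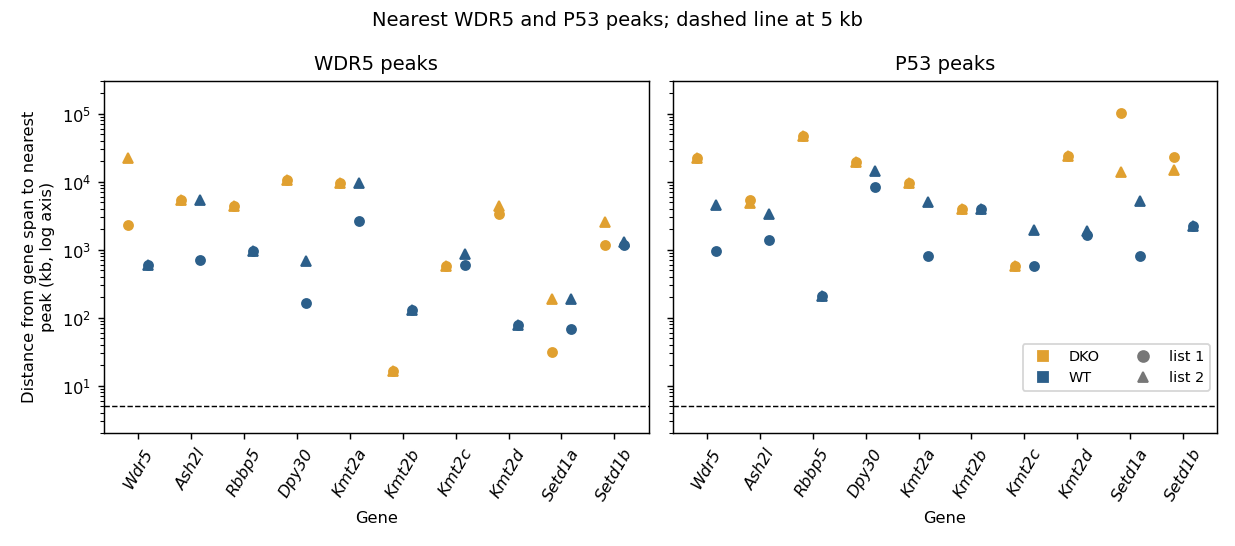
Distance in kb (log axis) from each gene span to the nearest WDR5 peak (left) and P53 peak (right), with DKO left of WT at each gene, circles for list 1 and triangles for list 2. All points lie above the dashed line at 5 kb, the lowest being DKO WDR5 at Kmt2b. Wdr5 and p53 are knocked out in DKO, so its points are not read as binding.

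The wider pathway was read from 39 genes in 5 lists: accessory subunits of the MLL and SET1 complexes, the NSL complex, which also holds WDR5, H3K4 demethylases, H3K4me3 readers and other SET domain genes. At an end, 5 were called in KO, 20 in DKO and 28 in WT, where the same rule called 3.20%, 22.8% and 35.5% of all protein-coding genes. The 5 in KO were Hcfc1, a cofactor shared by SET1 and NSL complexes, Ogt, the O-GlcNAc transferase, Kdm1a and Kdm5a, which remove H3K4 methyl groups, and Chd1, a remodeller that reads H3K4me3. Hcfc1 had a fold enrichment of 5.31 in KO, 4.61 in DKO and 4.93 in WT. Kdm5a had 5.13 in KO, 3.66 in DKO and 5.04 in WT. At both, unlike at Wdr5, the KO value was the highest of the 3 genotypes. Ogt had 4.11 in KO, 5.87 in DKO and 6.26 in WT, Kdm1a 4.29, 5.98 and 6.10 in that order, and Chd1 4.45, 5.46 and 5.46.

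Of the 12 accessory subunit genes, 1 was called in KO, 7 in DKO and 10 in WT, beside the same 3.20%, 22.8% and 35.5% of all genes. Psip1, which encodes the chromatin tether LEDGF, Bod1 and Bod1l, whose products associate with SET1 enzymes, were marked in WT (3.88, 6.92 and 5.10) and had no peak in DKO or KO. The NSL genes Kansl2 and Kansl3, the demethylase genes Kdm1b and Kdm5c and the reader genes Ing3 and Phf8 likewise had a peak at an end in WT and none in DKO. Ing1 and Kmt2e had none at an end in DKO but had one inside the span. In the other direction, Kat8, the acetyltransferase of the NSL complex, Phf2 and Prdm9 were called at an end in DKO (3.22, 3.50 and 3.30) and not in WT. Of the 28 pathway genes marked at an end in WT, 17 were also called in DKO, near the 59.8% of all WT-marked genes. In KO, 8.98% of all WT-marked genes were called. Of the 20 called in DKO, 17 were also called in WT, as were 4638 of 4999 among all genes. The missing calls are thus not read as particular to these genes. Of the 17 pathway genes called at an end in both, 13 were lower in DKO, against 83.5% of all genes called in both. By list, 7 of 7 accessory subunit genes were lower in DKO (median log2 ratio -0.43), as were 3 of 3 demethylase genes (-0.3) and 2 of 3 NSL genes (-0.09). Among the 4 H3K4me3 reader genes, 1 was lower in DKO, with a median log2 ratio of 0.01. Of these, Chd1 (5.46 in both) and Taf3 (5.04 in DKO, 5.0 in WT) had nearly equal values.

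The genes most like Wdr5 in H3K4me3 were sought among the 657 genes called at an end in all 3 genotypes, by the distance between log2 fold enrichments over the 3 libraries. The nearest were Hscb and Chek2, at a distance of 0.201, with 4.11 in KO, 7.18 in DKO and 8.32 in WT for both, so that 1 set of values stands for the pair. Atad5 (0.217), Dynlt1b (0.226) and Snrpd1 (0.234) came next. With 1 library per genotype, this likeness is a description of 3 values per gene.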

How the data were processed

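Per the file headers, the authors ran MACS (2.1.2 or 2.1.0.20150731, depending on the list) in paired-end mode with no control, keeping peaks below a q of 0.01, a regional background of 10 kb and no more than 2 identical fragments. The submitters' processing notes name build mm10, Bowtie2, SAMtools 1.5, bedtools and HOMER 4.10, with no role given. The deposited pileup is a coverage signal, the fragments over a summit, not scaled to depth; the −log10 p and −log10 q and the fold enrichment, a ratio to the background around the peak, are the deposited values of the authors for each peak.

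Peaks of the autosomes (1 to 19) and sex chromosomes were matched to RefSeq gene spans (GRCm38.p6) with Python 3.11.15, pandas 2.3.3, numpy 2.4.6 and scipy 1.17.1. The local background was recovered as (pileup + 1) / fold enrichment - 1; the Poisson p from it came within 0.01 of the deposited −log10 p for 95.8% to 99.9% of the peaks of a list. Distances run from the nearest base of a peak. The matching was tested on simulated peaks. The 10 genes, the 5 pathway lists, the marker lists and the motifs were chosen with earlier results of these data known. All 10 genes were named. Pathway genes were named where called in KO, or where called at an end in DKO or WT but not in both. Those called at an end in neither DKO nor WT were counted and not named. No test between genotypes was possible. Alternatives were other windows, stricter or equally long lists, leaving out a list, and other scales.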

Additional observations from a re-analysis of the deposited data

How the results depend on the processing

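The number of the 10 genes called in KO, 1 by the rule, became 0 where the peak had to overlap the end itself and 0 in the top 50% of the list by fold enrichment, 2 with a window of 5000 bases and 3 with the whole span. In DKO, 8 became 1 with the end itself overlapped, 5 in the top 50% and 3 with lists of equal length (918 peaks). In WT, 9 became 1 with the end itself overlapped and 2 with lists of equal length (Wdr5 and Setd1a), where KO had 1 and DKO more than WT. A −log10 q of at least 5 left 1 gene in KO, 7 in DKO and 8 in WT. The equal lists called 3.20% of all genes in KO, 4.03% in DKO and 4.25% in WT. Of all genes marked at an end, 9.99% in KO, 12.4% in DKO and 21.6% in WT had a peak over the end itself. For the top 50%, the q limit and the 5000-base window, the share of all genes was not computed. Counts under those settings are thus not read as particular to these genes. Of the WDR5 and P53 counts, all 0, DKO WDR5 became 2 with a window of 50000 bases (Kmt2b and Setd1a), and without list 1 or list 2 each count stayed at 0. As Wdr5 is knocked out in DKO, these peaks are not read as WDR5 binding. The share of all genes was not computed at the window of 50000 bases. Setd1a was that near in list 1 alone (31.6 kb, against 189 kb in list 2). As the lists of a pair were not shown to be separate libraries, leaving out a list is no replicate check. Relative to the median of all genes called in both, genes lower in DKO than in WT were 3 and not 7, and the log2 ratio turned to 0.06 at Wdr5, 0.12 at Rbbp5, 0.00 at Kmt2c and 0.19 at Setd1b. With the whole span, a setting added once the data had been seen, 3 genes and not 1 were lower in KO. The cause of these changes was not tested beyond what each rule leaves out. No paired analysis was possible because no result comes from a test and H3K4me3 has 1 list per genotype. Depth limits these values: summits rest on 18 to 73 fragments.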
